A study of Mus musculus with 8 samples.

Results

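Matrix metalloproteinases (MMPs), the secreted ADAMTS proteases and their TIMP inhibitors were examined in RNA-seq libraries of sorted mouse mammary gland cells. The members were all genes whose symbols were Mmp, Adamts or Timp followed by a number: 46 of the 49671 genes in the table, of which 23 were Mmp genes, 19 were Adamts genes and 4 were Timp genes. Cells were sorted through a luminal gate (CD45-CD31-CD140a-CD24+CD29low, 40000 cells) or a basal gate (the same markers with CD29high, 5000 cells), from mice labelled with the strain CD1 or from DNp63 mice. DNp63 mice carried K8rtTA, TetOCre and Rosa26-DNp63-IRES-GFP, so that the doxycycline-dependent activator under the Keratin 8 promoter of luminal cells led to Cre recombination and to expression of DNp63, the p63 isoform of basal epithelium, and their cells were also sorted as GFP+. Each of the 4 groups (CD1 luminal, DNp63 luminal, CD1 basal and DNp63 basal) had 2 libraries, all from females of mixed genetic backgrounds. The labels used here leave out the age and induction schedule of these mice. The transgene, the strain label, doxycycline and the selection of GFP+ cells came together, and their effects cannot be told apart. No label states whether a group's 2 libraries stem from different animals, so p-values measure only the spread between these libraries, which may be technical.

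MMPs are zinc-dependent endopeptidases, made as inactive proenzymes, that are either secreted or held at the cell surface and cut collagens, basement membrane and other extracellular proteins. ADAMTS proteases are secreted, carry thrombospondin repeats that bind matrix, and include cleavers of the proteoglycans aggrecan and versican, processors of procollagen and genes of the fibrillin microfibrils. TIMPs bind the active site of MMPs, TIMP3 also blocks several ADAMTS enzymes, and the balance of proteases and inhibitors is known for its part in branching of the mammary duct and in the remodelling of the gland after lactation.

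Values are read counts that the authors had scaled to 20000000 per library and rounded up, and they are called normalised read counts below. The reads behind a library numbered 4136978 to 7206703, so that 1 read was worth 2.78 to 4.83 normalised reads and 3 reads were worth 8.33 to 14.5. Trp63, which the transgene carries, was 61 and 45 in luminal CD1, 1297 and 1460 in luminal DNp63, 5457 and 7079 in basal CD1 and 8088 and 8306 in basal DNp63 libraries. Sums over 8 basal epithelial markers were 1737 to 4159 in luminal and 193519 to 214394 in basal libraries, and sums over 9 luminal markers were 212351 to 242066 and 13133 to 36152, so the gates matched their labels. The basal gate also carried markers of other cells: 10 endothelial markers summed to 2404 to 4140 in luminal and 36358 to 52623 in basal libraries although the sort was CD31-, 8 pericyte and vascular muscle markers to 4228 to 5882 and 17670 to 24119, and 8 adipocyte-associated markers to 420 to 673 and 14937 to 26578, with the adipocyte gene Adipoq at no more than 160. Fibroblast markers (8 genes) overlapped between the gates in CD1 mice and were higher in the basal gate in DNp63 mice: they summed to 9155 and 44193 in CD1 luminal libraries 1 and 2, 16994 and 9824 in luminal DNp63, 16809 and 46320 in basal CD1, and 68930 and 92152 in basal DNp63 libraries. Neutrophil markers summed to 38 to 216, with Ly6g at 0 in every library and S100a8 at 196 and 141 in CD1 luminal libraries against 4 to 33 in the others. In bulk RNA, fewer cells of a type and less RNA per cell cannot be told apart.

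Of the 46 members, 33 passed the filter on low values (at least 40 in at least 2 libraries): 13 Mmp, 16 Adamts and 4 Timp genes. Of these, 26 would have passed in the luminal libraries alone and 7 passed only through basal libraries, where they had to be higher. The 13 others were Mmp1a, Mmp1b, Mmp7, Mmp8, Mmp9, Mmp10, Mmp12, Mmp13, Mmp20, Mmp27, Adamts13, Adamts16 and Adamts19, with values from 0 to 112. Mmp1a, annotated as a polymorphic pseudogene, and Mmp1b were at 0 in every library. Mmp9, gelatinase B, was 13 to 34 over the 8 libraries. Mmp13, collagenase 3, was 4 to 23 in 6 libraries, 3 in DNp63 luminal library 1 and 112 in DNp63 basal library 2, the only untested value above 100.

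Most of the silent MMPs lie together in the genome. In the GRCm38 annotation 10 members (Mmp1a, Mmp1b, Mmp3, Mmp7, Mmp8, Mmp10, Mmp12, Mmp13, Mmp20 and Mmp27) fill 427.1 kb of chromosome 9 (7272514 to 7699585), and 9 of them did not pass the filter. Mmp3, stromelysin 1, was the member of the cluster that passed. RefSeq (GRCm38.p6) sequences upstream of the start were matched for 32 of the 46 members, all 10 of the cluster among them. The 110 bases before the annotated start are shown for 6 cluster genes, because these 6 held both an AP-1 motif (TGACTCA, or TGAGTCA on the other strand) and a TATA motif (TATAAA, or TTTATA on the other strand), and capitals mark these motifs.
Mmp13 (chr9:7272404-7272513, + strand): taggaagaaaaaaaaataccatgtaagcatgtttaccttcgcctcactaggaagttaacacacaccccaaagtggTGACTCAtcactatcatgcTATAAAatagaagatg
Mmp1b (chr9:7388027-7388136, - strand): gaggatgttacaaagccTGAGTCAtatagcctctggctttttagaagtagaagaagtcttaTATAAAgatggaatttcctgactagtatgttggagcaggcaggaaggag
Mmp3 (chr9:7445712-7445821, + strand): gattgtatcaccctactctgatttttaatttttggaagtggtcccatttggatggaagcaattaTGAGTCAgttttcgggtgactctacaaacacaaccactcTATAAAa
Mmp1a (chr9:7464031-7464140, + strand): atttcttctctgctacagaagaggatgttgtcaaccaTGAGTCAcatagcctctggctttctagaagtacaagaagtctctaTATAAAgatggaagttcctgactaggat
Mmp10 (chr9:7502232-7502341, + strand): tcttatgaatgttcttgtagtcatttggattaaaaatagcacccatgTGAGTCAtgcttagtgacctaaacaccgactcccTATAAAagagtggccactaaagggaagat
Mmp7 (chr9:7691980-7692089, + strand): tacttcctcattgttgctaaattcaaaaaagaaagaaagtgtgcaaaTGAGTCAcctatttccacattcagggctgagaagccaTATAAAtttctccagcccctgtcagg

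Over the 250 bases before the start, 7 of the 10 cluster genes and 0 of the other 22 matched members held the AP-1 letters, against 4.46% of 32851 windows of the same length. The TATA letters were in 7 of 10 and 2 of 22 (Adamts1 and Mmp21), against 12.4% of all windows, and both motifs together were in 6 of 10 and 0 of 22, against 0.721%. A GC box (GGGCGG, or CCGCCC on the other strand) was in 0 of 10 cluster genes and in 16 of the 22 other members, against 32.7% of all windows. Of the 6 genes that held both motifs 5 did not pass the filter, and neither did the 4 cluster genes without both. The corresponding 110 bases of 4 members outside the cluster, each among the most abundant of its class, are shown for contrast, with GC boxes and the TATA motif in capitals; no motif overlapped another in any sequence shown.
Mmp14 (chr14:54431488-54431597, + strand): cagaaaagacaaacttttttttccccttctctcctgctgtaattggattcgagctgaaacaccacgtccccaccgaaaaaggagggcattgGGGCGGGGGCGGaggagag
Mmp15 (chr8:95352186-95352295, + strand): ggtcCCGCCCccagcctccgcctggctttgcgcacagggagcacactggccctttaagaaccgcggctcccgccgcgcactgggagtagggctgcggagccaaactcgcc
Timp3 (chr10:86300302-86300411, + strand): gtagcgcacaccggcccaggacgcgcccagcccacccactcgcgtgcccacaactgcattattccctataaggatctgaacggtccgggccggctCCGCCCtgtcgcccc
Adamts1 (chr16:85803114-85803223, - strand): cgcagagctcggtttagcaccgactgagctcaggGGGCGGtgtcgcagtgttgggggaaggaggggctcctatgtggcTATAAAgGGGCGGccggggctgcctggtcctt

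These matches describe letters in the windows only. Adamts1 is the member with both a TATA motif and 2 GC boxes in the bases shown.

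Between the gates, the families did not move as one. Per kilobase of exon, the summed normalised reads of the Adamts genes were 820 ± 154 in luminal CD1, 824 ± 65.3 in luminal DNp63, 9804 ± 624 in basal CD1 and 10294 ± 981 in basal DNp63 libraries (SD, n = 2 each). The Timp sum per kilobase was 1530 ± 166, 1301 ± 19.8, 3449 ± 437 and 3587 ± 259 in the same order. The Mmp sum was 2564 ± 396, 1989 ± 377, 2866 ± 883 and 3451 ± 198. The luminal and basal libraries did not overlap in the Adamts and Timp sums. They did in the Mmp sum, where CD1 luminal library 2 (2844) lay above CD1 basal library 1 (2242). Per kilobase, Timps exceeded Adamts genes in the luminal libraries (1287 to 1647 against 711 to 929), and the order was turned in the basal libraries (3140 to 3770 against 9363 to 10987).

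The first comparison asked which members differ between basal and luminal cells of CD1 mice. Of the 33 tested members, 22 were called higher and 4 lower in basal than in luminal cells (limma, Benjamini-Hochberg adjusted p under 0.05), where 44.3% of all 16900 genes tested were called (24.4% higher and 19.9% lower). The median log2 difference of the members was 1.72, against -0.01 over all genes. The counts and medians here include the 7 members that passed the filter only through basal libraries, where a higher basal value was built in. They were Adamts6, Adamts14, Adamts18, Adamts20, Mmp17, Mmp24 and Mmp28, and all but Adamts6 were among those called higher. No count or median was made without them. By class, 14 of 16 Adamts genes were higher and 0 lower, 6 of 13 Mmp genes were higher and 3 lower, and 2 of 4 Timp genes were higher and 1 lower. In DNp63 mice, 24 members were higher and 2 lower in basal than in luminal cells, where 48% of all genes were called (26.6% higher and 21.5% lower), with a median of 2.11 against -0.01. There 14 Adamts genes were higher and 1 lower, 7 Mmp genes were higher and 1 lower, and 3 Timp genes were higher. All 4 basal libraries lay above all 4 luminal ones for 23 of the 33 members, below them for 2 (Mmp15 and Adamts3), and overlapped them for 8. The share of all genes tested that separate in this way was not computed, so the count is not read as particular to the members. It also includes members that passed the filter only through basal libraries. The calls of 16 members in CD1 mice and of 19 in DNp63 mice held in every alternative run and with each library left out.

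**Figure D1:**
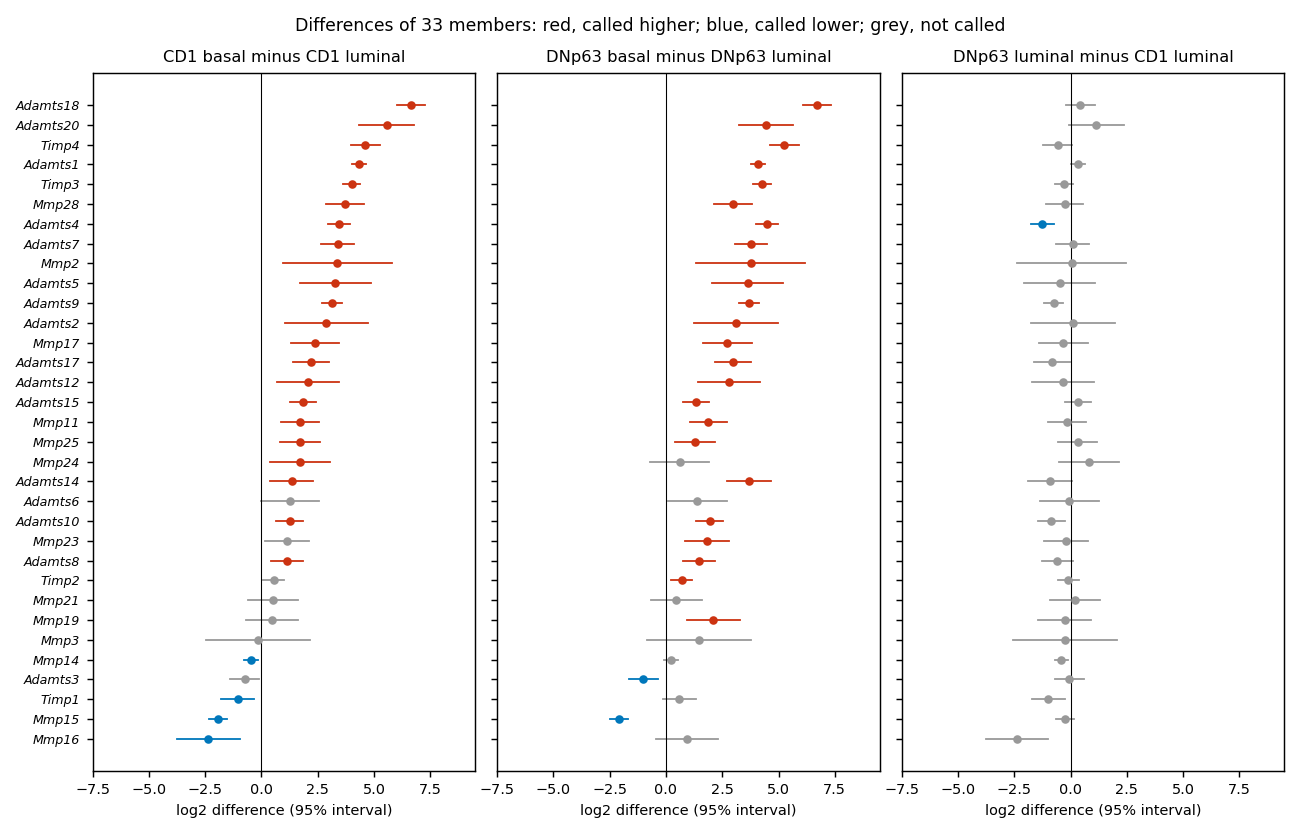
Points are log2 differences of the 33 tested members (rows, ordered by the difference in CD1 mice) for 3 comparisons, bars are 95% intervals from the limma fit, red is called higher, blue called lower and grey not called. Most members lie to the right of 0 in both comparisons of basal with luminal cells, with Adamts18 at the top, and 1 member, Adamts4, is called between DNp63 and CD1 luminal cells.

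Among the inhibitors, Timp3 and Timp4 rose with the basal gate, whereas Timp2 and Timp1 had differences near or under 1 on the log2 scale. Timp3, the matrix-bound TIMP, was 667 and 678 in luminal CD1, 678 and 490 in luminal DNp63, 10214 and 11737 in basal CD1 and 11890 and 9490 in basal DNp63 libraries. No luminal library came near a basal one. The log2 difference was 4.00 ± 0.175 (SE) in CD1 mice (adjusted p = 1.49e-06) and 4.29 in DNp63 mice (adjusted p = 8.6e-07). Timp4, a TIMP of restricted tissue range, was 93 and 86 in luminal CD1, 64 and 59 in luminal DNp63, 2244 and 2536 in basal CD1 and 3486 and 1746 in basal DNp63 libraries. It was again separate between gates, with log2 differences of 4.61 ± 0.284 (adjusted p = 8.06e-06) in CD1 and 5.25 (adjusted p = 3.04e-06) in DNp63 mice.

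Both genes lie within synapsin genes on the other strand, with some exon overlap, and since no source used here says whether reads were counted by strand, reads of each pair cannot be told apart. Timp1 lies within Syn1 without exon overlap. Syn3, around Timp3, was 239 to 375 in luminal and 467 to 631 in basal libraries. Syn2, around Timp4, was 353 to 1263 in luminal and 121 to 307 in basal libraries, opposite to Timp4. The endothelial, pericyte and adipocyte-associated marker sums rose with the same gate. In CD1 mice 9 of 10, 7 of 8 and 8 of 8 of these genes were called higher, against 24.4% of all genes tested. Some of these markers, Adipoq among them, passed the filter only through basal libraries. The part of these cell types in the Timp3 and Timp4 differences was not tested.

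Timp2, which blocks MMP2 and also serves Mmp14 in activating it, was 3238 and 4979 in luminal CD1, 3975 and 4034 in luminal DNp63, 5297 and 6560 in basal CD1 and 5804 and 6314 in basal DNp63 libraries. All basal libraries were above all luminal ones, by a small margin. The log2 difference was 0.55 ± 0.203 in CD1 mice (adjusted p = 0.0566) and 0.70 in DNp63 mice (adjusted p = 0.0207). With all libraries kept, the DNp63 call was lost with no filter beyond a value above 0 (adjusted p = 0.0525) and without an intensity trend (adjusted p = 0.0601). The call in DNp63 mice was lost with any of the 4 DNp63 libraries left out (adjusted p = 0.0590 to 0.109), and a call was gained in CD1 mice without CD1 luminal library 2 (0.87, adjusted p = 0.00248), with the replicate numbers as a block (adjusted p = 0.0209), without further scaling (adjusted p = 0.0471) and with the filter at 100 (adjusted p = 0.0499). Timp1, a secreted inhibitor of most MMPs, was 430 and 241 in luminal CD1, 178 and 161 in luminal DNp63, 129 and 180 in basal CD1 and 203 and 286 in basal DNp63 libraries. It was highest in CD1 luminal library 1, and the gates overlapped. The difference between CD1 basal and CD1 luminal cells was -1.05 ± 0.324 (adjusted p = 0.0283), which missed the threshold without CD1 luminal library 1 (-0.66, adjusted p = 0.162) or CD1 basal library 1 (-0.80, adjusted p = 0.166). The CD1 call was also lost with all libraries kept and only the groups compared (adjusted p = 0.0697). In DNp63 mice the Timp1 difference was 0.59 (adjusted p = 0.165), and the interaction of gate and mouse was 1.64 (adjusted p = 0.201).

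**Figure D2:**
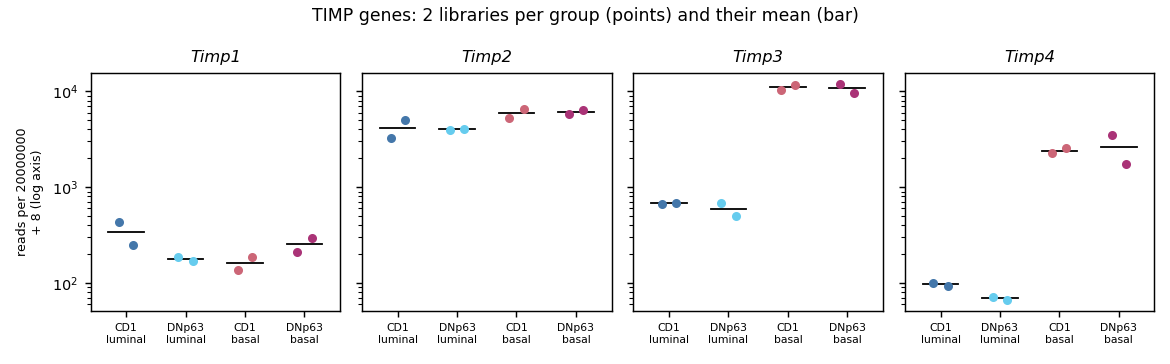
Each panel shows a Timp gene in the 4 groups: points are the 2 libraries of a group, bars their mean, and the log axis is normalised reads plus 8. Timp3 and Timp4 form separate low luminal and high basal levels, Timp2 lies in a narrow band, and Timp1 is highest in CD1 luminal cells.

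The make-up of the inhibitors differed between gates accordingly. Per kilobase of exon, Timp2 made 68.9% of the Timp sum in CD1 luminal and 79.0% in DNp63 luminal cells, and 44.1% and 43.4% in the basal groups. Timp3 made 5.4% and 5.5% in luminal cells, and 39.1% and 36.6% in basal cells. Timp4 went from 1.0% and 0.8% to 11.8% and 12.4%. These shares hold for this length only and were not computed on the longest transcript. For Timp3, all exons span 8144 bases and the longest transcript 4722, against 3896 and 3709 for Timp2.

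The ADAMTS proteases were mostly higher in basal cells, where Adamts1, Adamts4 and Adamts9 had the highest levels per kilobase of all exons. That order can change with the length used, and it was not computed per kilobase of the longest transcript. Adamts1, which cleaves versican and aggrecan, was 1685 and 1979 in luminal CD1, 2318 and 2638 in luminal DNp63, 39467 and 34984 in basal CD1 and 42480 and 36887 in basal DNp63 libraries. It had the highest level of the class in every group, 42.1% and 56.7% of the Adamts sum per kilobase in CD1 and DNp63 luminal cells and 71.6% and 72.7% in the basal groups. The log2 difference was 4.33 ± 0.137 (adjusted p = 3.87e-07) in CD1 and 4.10 (adjusted p = 4.07e-07) in DNp63 mice. Adamts4, aggrecanase 1, was 302 and 378 in luminal CD1, 175 and 122 in luminal DNp63, 3773 and 3725 in basal CD1 and 3798 and 2756 in basal DNp63 libraries. Basal libraries were all above luminal ones, and DNp63 luminal libraries were the lowest. The differences were 3.44 ± 0.218 (adjusted p = 9.29e-06) and 4.49 (adjusted p = 1.82e-06). Adamts9, a versican-cleaving protease of the GON subfamily, was 972 and 1167 in luminal CD1, 561 and 806 in luminal DNp63, 9234 and 9645 in basal CD1 and 7490 and 8925 in basal DNp63 libraries. Its differences were 3.13 ± 0.189 (adjusted p = 7.15e-06) and 3.69 (adjusted p = 2.4e-06).

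Its close relative Adamts20 was 11 and 0 in luminal CD1, 25 and 16 in luminal DNp63, 838 and 384 in basal CD1 and 776 and 421 in basal DNp63 libraries. It was at or near the value of 3 reads in CD1 luminal cells, and its fitted differences of 5.56 ± 0.532 (adjusted p = 7.37e-05) and 4.45 (adjusted p = 0.000212) on the log2(value + 8) scale depend on the added 8 (6.82 in CD1 mice with 2 added and 4.58 with 20). Adamts18, known from mice for a part in mammary duct development, was 36 and 26 in luminal CD1, 37 and 59 in luminal DNp63, 4844 and 3086 in basal CD1 and 5964 and 4845 in basal DNp63 libraries. The luminal libraries held few reads of it, and the basal ones ranged from 3086 to 5964. It had the largest difference of the 33 members, 6.64 ± 0.278 (adjusted p = 1.27e-06) in CD1 and 6.71 (adjusted p = 9.05e-07) in DNp63 mice. Adamts7, a protease of cartilage oligomeric matrix protein, was 110 and 52 in luminal CD1, 100 and 75 in luminal DNp63, 820 and 927 in basal CD1 and 1358 and 1093 in basal DNp63 libraries. Its differences were 3.38 (adjusted p = 6.48e-05) and 3.79 (adjusted p = 2.78e-05). Part of its exons, and of those of Adamts9, overlap exons of genes on the other strand (Tbc1d2b, and A730049H05Rik with Gm15737), whose reads cannot be told apart. Of these, A730049H05Rik was 23 to 101 in luminal and 605 to 763 in basal libraries.

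A further set of Adamts genes was higher in basal cells but uneven within the luminal gate. Adamts5, aggrecanase 2, was 61 and 427 in luminal CD1, 161 and 94 in luminal DNp63, 1704 and 1673 in basal CD1 and 1758 and 1291 in basal DNp63 libraries. Adamts12 was 125 and 630 in luminal CD1, 286 and 200 in luminal DNp63, 1003 and 1502 in basal CD1 and 1446 and 1813 in basal DNp63 libraries. Adamts2, which trims the amino-terminal propeptide of fibrillar procollagens, was 40 and 445 in luminal CD1, 189 and 137 in luminal DNp63, 971 and 1218 in basal CD1 and 1307 and 1412 in basal DNp63 libraries. In each of the 3 genes CD1 luminal library 2 was several times above library 1, and all basal libraries were higher still. In CD1 mice the differences were 3.28 ± 0.695 (adjusted p = 0.0051) for Adamts5, 2.08 (adjusted p = 0.0221) for Adamts12 and 2.89 (adjusted p = 0.0193) for Adamts2. Without CD1 luminal library 1 they were 1.94, 0.93 and 1.25, and without library 2 they were 4.63, 3.23 and 4.52, each with an adjusted p under 0.05, whereas the Adamts2 call was lost without either CD1 basal library (adjusted p = 0.0609 and 0.0945) and the Adamts12 call without CD1 basal library 2 (adjusted p = 0.123). With only the groups compared, the CD1 calls of Adamts12 (adjusted p = 0.0676) and Adamts2 (adjusted p = 0.0667) were lost. Without an intensity trend, that of Adamts12 was lost too (adjusted p = 0.0541). In DNp63 mice the differences of Adamts5, Adamts12 and Adamts2 were 3.63 (adjusted p = 0.00281), 2.82 (adjusted p = 0.00506) and 3.12 (adjusted p = 0.0129), the last not called without luminal library 2 or either basal library of DNp63 mice.

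Adamts1 and Adamts5 are neighbours on chromosome 16, 53.1 kb apart, and Adamts15 and Adamts8 are neighbours on chromosome 9, 20.1 kb apart. Both pairs were higher in basal cells. Adamts15, also a versican cleaver, was 135 to 204 in luminal and 402 to 675 in basal libraries (1.86 in CD1 and 1.31 in DNp63 mice). Adamts8 was 63 to 118 and 146 to 229, with differences of 1.14 (adjusted p = 0.0154) and 1.47 (adjusted p = 0.00434), the first of which missed the threshold without either CD1 basal library or CD1 luminal library 2. Of the members linked to fibrillin microfibrils, Adamts17 was higher by 2.19 and 2.98 and Adamts10 by 1.26 and 1.94 in CD1 and DNp63 mice, both called in each, while Adamts6, at 12 to 108 over all libraries, differed by 1.27 (adjusted p = 0.103) and 1.39 (adjusted p = 0.074).

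The 3 procollagen-processing members did not move together. Beside Adamts2, Adamts14 was 3 to 23 in luminal libraries, 42 and 68 in basal CD1 and 173 and 141 in basal DNp63 libraries, with differences of 1.34 (adjusted p = 0.0298) in CD1 and 3.69 (adjusted p = 0.000165) in DNp63 mice. The first was not called without CD1 luminal library 1 or CD1 basal library 2. With all libraries kept, it was not called with no filter beyond a value above 0 (adjusted p = 0.0672) or with only the groups compared (adjusted p = 0.0634). The interaction was 2.35 (adjusted p = 0.171). Adamts3, which also acts on a vascular growth factor precursor, was 692 and 738 in luminal CD1, 617 and 869 in luminal DNp63, 582 and 312 in basal CD1 and 367 and 310 in basal DNp63 libraries. It was lower in every basal library and was the one Adamts gene called lower, by -0.999 ± 0.288 (adjusted p = 0.0197) in DNp63 mice, against -0.74 (adjusted p = 0.0654) in CD1 mice. The call in DNp63 mice was lost without DNp63 luminal library 2 (-0.77, adjusted p = 0.131) or 1 of the DNp63 basal libraries (adjusted p = 0.0566 and 0.101).

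**Figure D3:**
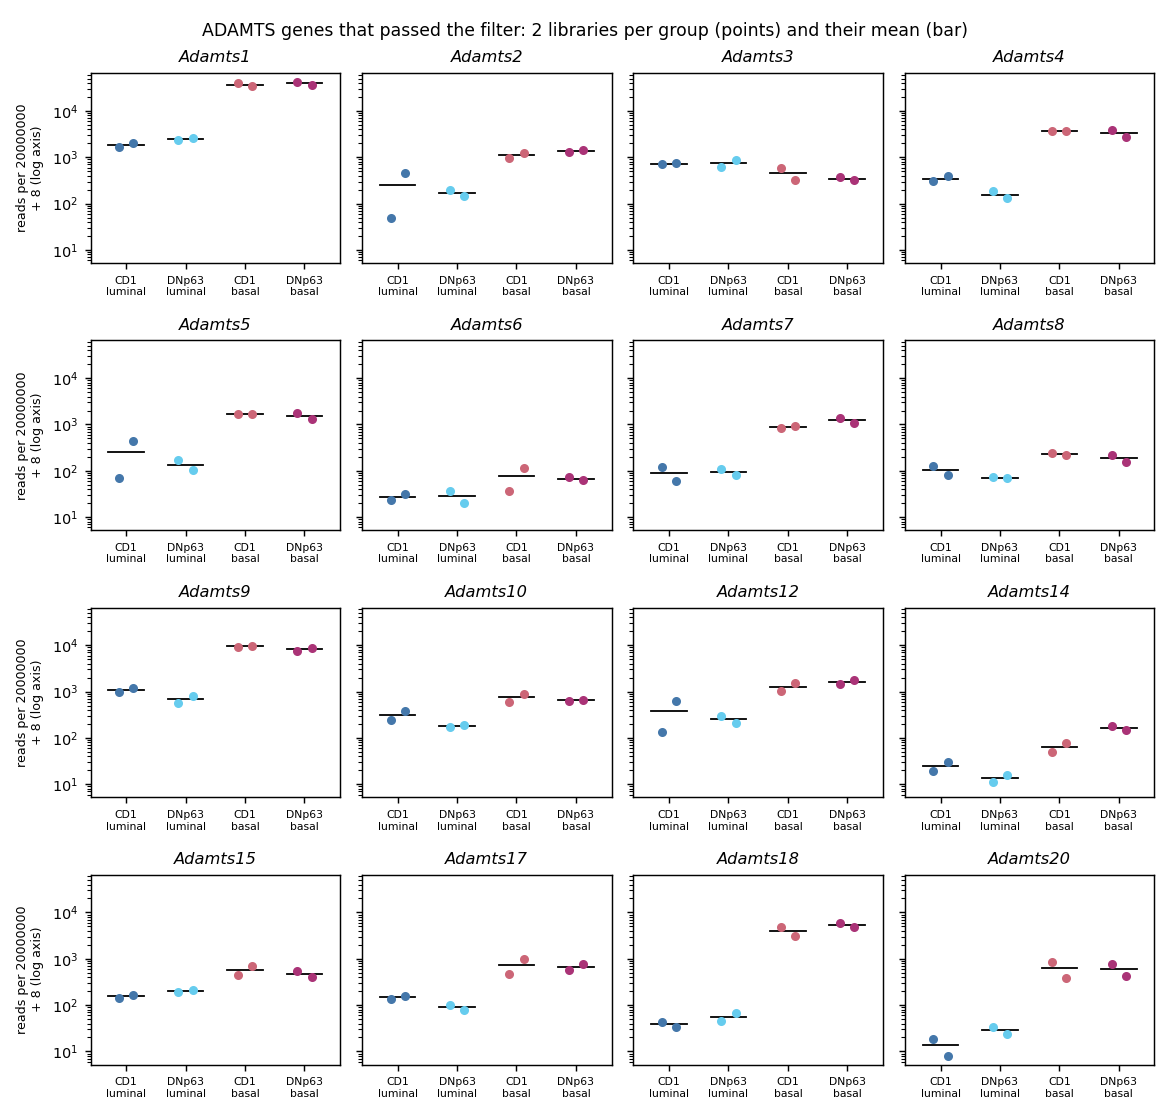
Each panel shows 1 of the 16 Adamts genes that passed the filter in the 4 groups: points are the 2 libraries of a group, bars their mean, and the log axis is normalised reads plus 8. Adamts1 lies highest, Adamts18 shows the widest gap between gates, and Adamts3 is higher in luminal libraries.

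Among the MMPs, Mmp15 and Mmp14, both membrane-type enzymes, had the highest levels per kilobase in luminal cells. Mmp15, membrane-type 2 MMP, was 6131 and 5313 in luminal CD1, 5950 and 4297 in luminal DNp63, 1589 and 1434 in basal CD1 and 1206 and 977 in basal DNp63 libraries. It was lower in every basal library, by -1.92 ± 0.175 (adjusted p = 5.91e-05) in CD1 and -2.11 (adjusted p = 2.83e-05) in DNp63 mice, and it was the one member called lower in both. Its share of the Mmp sum per kilobase was 41.4% and 47.7% in CD1 and DNp63 luminal cells and 9.8% and 5.9% in the basal groups. Mmp14, membrane-type 1 MMP and the activator of MMP2, was 5656 and 4616 in luminal CD1, 4274 and 3933 in luminal DNp63, 4075 and 3458 in basal CD1 and 4548 and 4390 in basal DNp63 libraries. It was close to level over the groups, and the gates overlapped. Its difference was -0.45 ± 0.133 in CD1 mice (adjusted p = 0.0234), a call lost without CD1 luminal library 1 or CD1 basal library 2. With all libraries kept, that call was lost without an intensity trend (adjusted p = 0.078) and with only the groups compared (adjusted p = 0.0836). In DNp63 mice the Mmp14 difference was 0.23 (adjusted p = 0.191, 95% interval -0.08 to 0.53).

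Mmp16, membrane-type 3 MMP, was 547 and 649 in luminal CD1, 270 and 47 in luminal DNp63, 106 and 116 in basal CD1 and 190 and 237 in basal DNp63 libraries. CD1 luminal cells stood above every other library, and the DNp63 luminal pair differed more than any other. It was lower in basal than in luminal CD1 cells, by -2.35 ± 0.609 (adjusted p = 0.0132), a call lost without either CD1 basal library (adjusted p = 0.0632 and 0.0561), and it was 0.93 (adjusted p = 0.239) in DNp63 mice. The interaction was 3.28 (adjusted p = 0.18). The membrane-type genes that are anchored by lipid went the other way. Mmp17 was 11 to 38 in luminal and 120 to 180 in basal libraries, a difference of 2.39 (adjusted p = 0.00374) and 2.72 (adjusted p = 0.00173), and Mmp25 was 26 to 54 and 102 to 165, a difference of 1.72 (adjusted p = 0.00675) and 1.29 (adjusted p = 0.0224). With no filter beyond a value above 0, the Mmp25 call in DNp63 mice was lost (adjusted p = 0.0557). The Mmp25 calls were lost without CD1 basal library 1 in CD1 mice (adjusted p = 0.0513), and without DNp63 basal library 1 or either luminal library in DNp63 mice (adjusted p = 0.0793 to 0.142).

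The secreted gelatinase Mmp2 had the highest Mmp level per kilobase in basal cells (53.8% and 55.2% of the Mmp sum in CD1 and DNp63 basal cells, 11.5% and 7.6% in luminal cells). It was 103 and 1890 in luminal CD1, 639 and 384 in luminal DNp63, 3095 and 7306 in basal CD1 and 5838 and 7010 in basal DNp63 libraries. Every basal library was above every luminal one, but CD1 luminal library 2 lay far above library 1. The difference was 3.37 ± 1.061 (adjusted p = 0.0303) in CD1 mice, 1.31 (adjusted p = 0.0535) without CD1 luminal library 1, 5.43 (adjusted p = 5.32e-05) without library 2, and not called without any 1 of the 4 basal libraries (adjusted p = 0.0512 to 0.164). With all libraries kept, the CD1 call was also lost with no filter beyond a value above 0 (adjusted p = 0.0617) and without an intensity trend (adjusted p = 0.07). It was lost with only the groups compared as well (adjusted p = 0.0885). In DNp63 mice the difference was 3.77 (adjusted p = 0.0178), also not called without DNp63 luminal library 2 or 1 of the basal DNp63 libraries.

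Most other MMPs were low, and several were higher in basal cells. Mmp28, epilysin, was 6 to 12 in luminal libraries, 234 and 264 in basal CD1 and 152 and 92 in basal DNp63 libraries, with differences of 3.72 ± 0.366 (adjusted p = 8.5e-05) and 2.99 (adjusted p = 0.000243). Mmp11, stromelysin 3, was 36 to 56 in luminal and 129 to 236 in basal libraries (1.72 and 1.88, both called), beside an overlapping gene on the other strand, Chchd10, that was 230 to 380 in luminal and 52 to 85 in basal libraries. Mmp19 was 50 to 163 in luminal libraries, 129 and 132 in basal CD1 and 279 and 426 in basal DNp63 libraries. It was called in DNp63 mice, by 2.11 (adjusted p = 0.00887), lost without DNp63 luminal library 2 or DNp63 basal library 2, against 0.47 (adjusted p = 0.487) in CD1 mice, with an interaction of 1.64 (adjusted p = 0.475). Mmp23, a membrane-bound enzyme cut free by proprotein convertases, differed by 1.14 (adjusted p = 0.0611, but 0.0366 with the block and 0.0479 with limma voom) and 1.82 (adjusted p = 0.00836, lost without DNp63 luminal library 1). Mmp24, membrane-type 5 MMP, differed by 1.70 (adjusted p = 0.0413, lost with limma voom at adjusted p = 0.0622, with 3 other settings, and without CD1 luminal library 2, CD1 basal library 2 or either luminal DNp63 library) and 0.60 (adjusted p = 0.422). Mmp21 was not called in any comparison, at 22 to 88. Mmp3 was not called in any comparison either. Singled out after its values were seen, it was 29 and 501 in luminal CD1, 181 and 71 in luminal DNp63, 83 and 160 in basal CD1 and 333 and 286 in basal DNp63 libraries, and its CD1 difference of -0.16 (adjusted p = 0.916) became -2.07 (adjusted p = 0.0168) without CD1 luminal library 1 and 1.75 (adjusted p = 0.0351) without library 2.

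**Figure D4:**
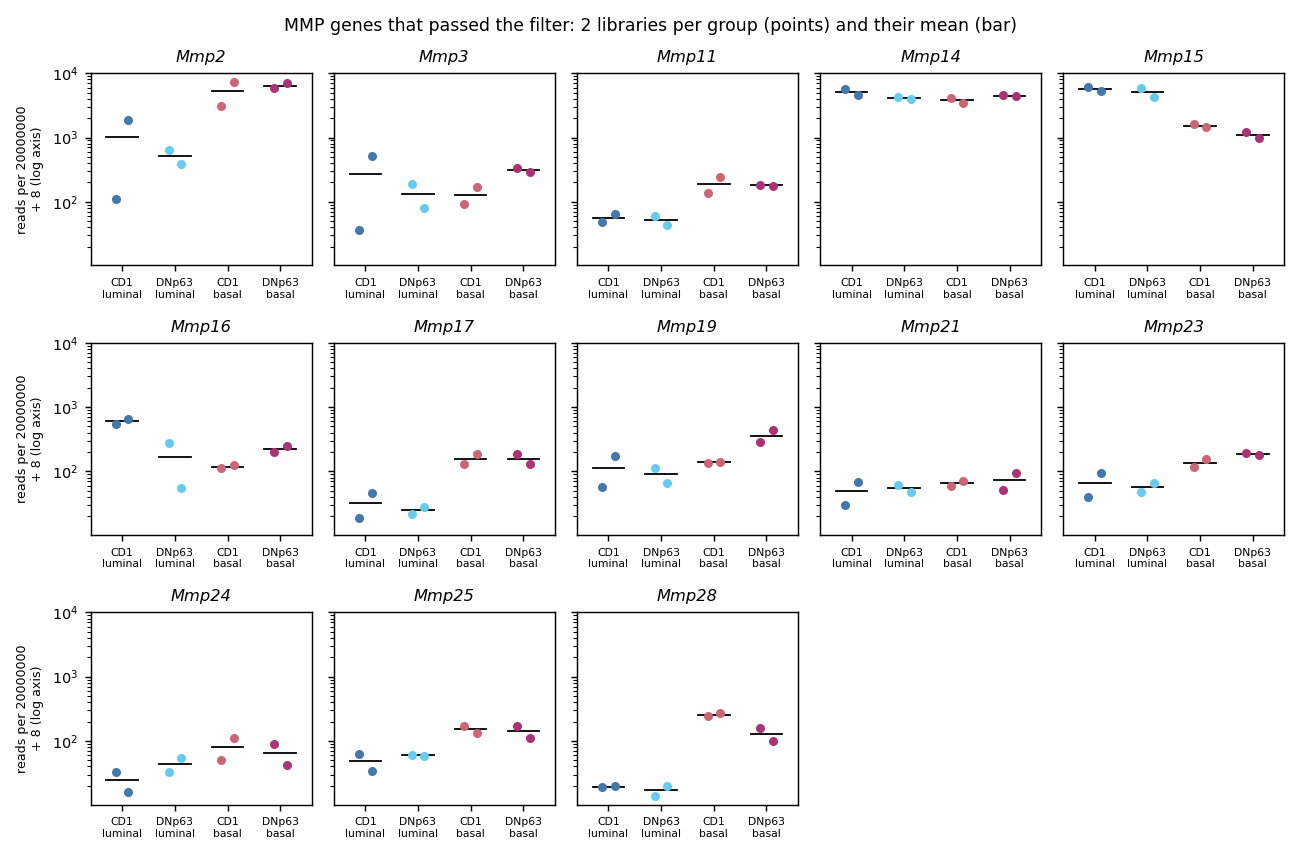
Each panel shows 1 of the 13 Mmp genes that passed the filter in the 4 groups: points are the 2 libraries of a group, bars their mean, and the log axis is normalised reads plus 8. Mmp14 is level, Mmp15 is lower in basal libraries, and Mmp2 and Mmp3 differ widely between the 2 CD1 luminal libraries.

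Among the members that were several times higher in CD1 luminal library 2 than in library 1, 5 were chosen after their values were seen and are set beside the fibroblast markers. Fibroblast markers summed to 9155 in CD1 luminal library 1 and 44193 in library 2, with the collagen gene Col1a1 at 692 and 11506 and Pdgfra, the gene of CD140a that the sort selected against, at 196 and 1049, while Dcn, decorin, was nearer level at 6581 and 7887. In the same libraries Mmp2 was 103 and 1890, Mmp3 was 29 and 501, Adamts2 was 40 and 445, Adamts5 was 61 and 427 and Adamts12 was 125 and 630. In CD1 basal cells, where the marker sums were 16809 and 46320, Mmp2 was 3095 and 7306 and Mmp3 was 83 and 160, whereas Adamts5 was 1704 and 1673. Other members differed between the CD1 luminal libraries in the opposite direction, such as Timp1 (430 and 241) and Adamts7 (110 and 52). The part of fibroblast RNA in these differences was not tested. Of the 8 fibroblast markers, 0 were called between the gates in CD1 mice, where 44.3% of all genes were called. In DNp63 mice 4 were called higher in basal than in luminal cells, where 26.6% of all genes were called higher.

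**Figure D5:**
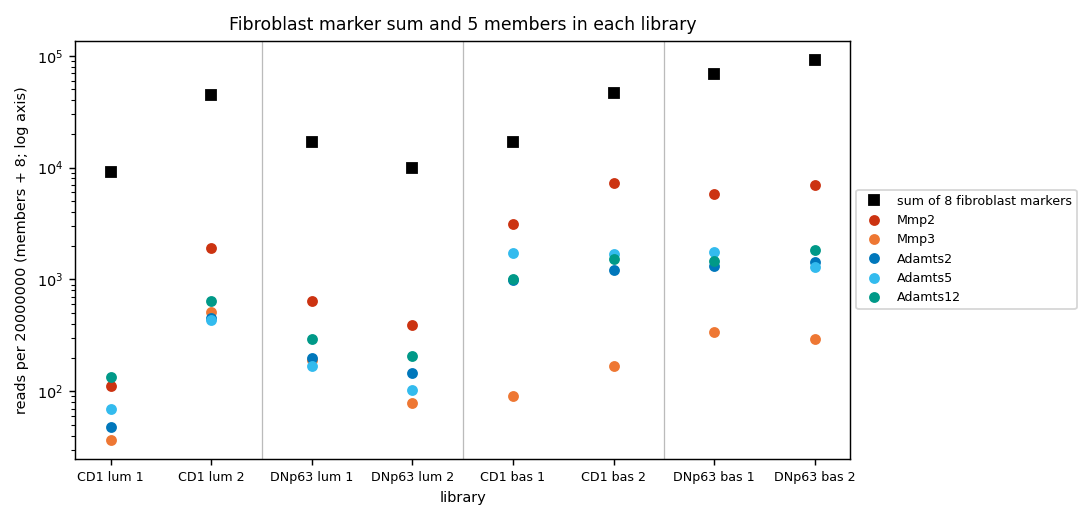
For each of the 8 libraries, black squares are the sum of 8 fibroblast markers and coloured points are Mmp2, Mmp3, Adamts2, Adamts5 and Adamts12 (plus 8), in normalised reads on a log axis. All 5 members and the marker sum are higher in CD1 luminal library 2 than in library 1, and Adamts5 is close to level between the CD1 basal libraries, where the marker sum is not.

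The DNp63 transgene was set against CD1 within each gate. In luminal cells, 0 of the 33 members were higher and 1 was lower, where 4.36% of all genes were called (2.46% higher and 1.89% lower). The median was -0.26 against -0.02 over all genes, and 8 members had an unadjusted p under 0.05. Leaving out CD1 luminal library 1 or library 2 changed how many members were called and in which direction. The balance of higher and lower calls over all genes shifted the same way in each run. In the reported fit the called member was Adamts4, at 175 and 122 in DNp63 against 302 and 378 in CD1 luminal libraries. Its difference was -1.25 ± 0.218 (adjusted p = 0.0165). Its call was lost without an intensity trend (adjusted p = 0.0633) and with only the groups compared (adjusted p = 0.17). The groups did not overlap, but the call was lost with limma voom on the recovered reads (-1.25, adjusted p = 0.0621), without CD1 luminal library 2 (-1.08, adjusted p = 0.0573) and without DNp63 luminal library 2 (-1.02, adjusted p = 0.118). Adamts9 differed by -0.74 (adjusted p = 0.0678) and Mmp16 by -2.37 (adjusted p = 0.0716, and -3.57 with adjusted p = 0.00718 without DNp63 luminal library 1), neither past the threshold in the reported fit. Adamts9 was called with the replicate numbers as a block (-0.74, adjusted p = 0.0164), and Mmp16 by limma voom on the recovered reads (-2.30, adjusted p = 0.0467). For Mmp2 and Adamts2 the sign itself depended on 1 library: Mmp2 differed by 0.05 (adjusted p = 0.996), by -2.02 (adjusted p = 0.0417) without CD1 luminal library 1 and by 2.11 (adjusted p = 0.0476) without library 2, and Adamts2 by 0.11, -1.52 (adjusted p = 0.0122) and 1.75 (adjusted p = 0.0111).

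In basal cells, 0 of the 33 members were called between DNp63 and CD1 mice by limma, where 0.633% of all genes were called (0.207% higher and 0.426% lower), and 0 were called by limma voom. With an unadjusted p under 0.05 there were 4. The median was 0.06. The SE of 0.137 for Adamts1 and 0.175 for Timp3 left differences of 0.11 (adjusted p = 0.84) and -0.02 (adjusted p = 0.983), whereas the 95% interval of the Mmp2 difference (0.45) was -1.97 to 2.87. Adamts14, at 1.44 (adjusted p = 0.231), and Mmp28, at -1.001 (adjusted p = 0.342), had separate library values without a call. So did other members, such as Mmp19 at 1.37 (adjusted p = 0.348), and the share of all genes that separate was not computed. The interaction of gate and mouse was called for 0 of the 33 members, where 0.284% of all genes were called (0.0828% higher and 0.201% lower), with 5 members at an unadjusted p under 0.05 and 0 called by limma voom. With 1 library left out it was called for Adamts2 (1.86, adjusted p = 0.044, without CD1 luminal library 1) and Mmp16 (4.47, adjusted p = 0.0167, without DNp63 luminal library 1).

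DNp63 basal cells were also set against CD1 luminal cells, a contrast in which gate and mouse differ together and which shares its libraries with those above. There 24 members were higher and 2 lower, where 46.9% of all genes were called (26.3% higher and 20.6% lower), and the median was 1.84 against 0.03. The 7 members that passed the filter only through basal libraries are included. The 2 lower members were Mmp15 (-2.37, adjusted p = 1.48e-05) and Adamts3 (-1.05, adjusted p = 0.0161, lost without CD1 luminal library 2 or DNp63 basal library 2). Adamts18 had a difference of 7.14 (adjusted p = 7.72e-07), Timp4 of 4.68 and Timp3 of 3.98, and Timp2 was called at 0.61 (adjusted p = 0.0369), a call lost without CD1 luminal library 1 or any DNp63 library. With all libraries kept, the Timp2 call was lost with no filter beyond a value above 0 (adjusted p = 0.0758) and without an intensity trend (adjusted p = 0.0919). It was lost with only the groups compared as well (adjusted p = 0.095).

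Related protease and matrix genes gave the setting. Of 12 proteoglycans and linked matrix proteins that ADAMTS enzymes cut or bind, 8 were higher and 0 lower in CD1 basal than CD1 luminal cells (median 2.99). Of all genes tested, 24.4% were higher and 19.9% lower there. In DNp63 mice 11 were higher and 0 lower (median 3.95), against 26.6% and 21.5% of all genes. Of this list, 3 genes (Dcn, Lum and Fbln1) are also among the fibroblast markers. Fmod, fibromodulin, differed by 6.10 and Bgn, biglycan, by 4.15 in CD1 mice. Fmod passed the filter only through basal libraries, where a higher basal value was built in. So did some other genes of the related lists, and the list counts and medians include them. Vcan, versican, a substrate of Adamts1, Adamts4, Adamts5 and Adamts9, was 192 and 382 in luminal CD1, 306 and 388 in luminal DNp63, 3356 and 4508 in basal CD1 and 13622 and 23612 in basal DNp63 libraries. It was higher in DNp63 than in CD1 basal cells (2.22, adjusted p = 0.0408), where no Adamts member was called. The fibroblast marker sum was also higher there (68930 and 92152 against 16809 and 46320), and its part in the Vcan difference was not tested. In that comparison 0 of 8 fibroblast markers were called, against 0.633% of all genes. Among 12 other regulators of MMPs, 7 were higher and 2 lower in CD1 mice (median 1.25), against 24.4% and 19.9% of all genes. Spock2, a testican, differed by 4.84 and Lrp1, an endocytic receptor of proteases and TIMPs, by 3.19. Bsg, an inducer of MMPs, fell by 1.28 and Furin, which activates membrane-type MMPs, fell by 0.50. Pcsk5, another proprotein convertase, was 302 and 260 in CD1 luminal and 95 and 75 in DNp63 luminal libraries (-1.72, adjusted p = 0.00241), 1763 and 1913 in basal CD1 and 1754 and 2166 in basal DNp63 libraries, with an interaction of 1.83 (adjusted p = 0.0402).

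The other protease systems are given beside the shares of all genes called between the CD1 gates, 24.4% higher and 19.9% lower. Of 13 astacin and serine proteases of the matrix, 7 were higher and 2 lower in CD1 mice (median 2.23), with Pappa, a protease of IGF-binding proteins, at 5.54, Mep1a, meprin alpha, at 3.92 and the epithelial serine protease St14 at -2.25. Pappa was 2047 and 3031 in basal CD1 and 6571 and 7180 in basal DNp63 libraries (1.48, adjusted p = 0.0319). Of 12 membrane ADAMs and their relatives, 4 were higher and 2 lower in CD1 mice (median 0.35). Adam19 and Adam12 were higher by 2.76 and 2.66, and Adam10 and Adam9, which shed cell surface proteins, lower by -1.41 and -0.80. Adam28 was 8 and 4 in CD1 luminal and 200 and 188 in DNp63 luminal libraries (3.79, adjusted p = 0.00156), and at most 13 in basal libraries. Adamdec1 was 0 in both CD1 luminal libraries and 92 and 63 in DNp63 luminal ones (adjusted p = 0.00414). Adam28 and Adamdec1 passed the filter only through the DNp63 luminal libraries, so a higher value in that group was built in. Of 10 plasminogen system genes, 5 were higher and 2 lower in CD1 mice (median 0.74), with the serpin Serpine2 at 2.52 and the urokinase receptor gene Plaur at -1.90. Of 13 cathepsins and cystatins, the lysosomal proteases and their inhibitors, 2 were higher and 4 lower in CD1 mice (median -0.09), led by Ctsh at -2.34. Of 6 ADAMTS-like genes, which lack the protease domain, 2 were higher and 2 lower in CD1 mice, with Adamtsl3 at 4.42 and Thsd4 at -2.79. Mep1a and Adamtsl3 passed the filter only through basal libraries, so their higher basal values were built in.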

How the data were processed

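Sorted cells of 8 libraries (4 groups, 2 each) were profiled by RNA-seq. STAR and HTSeq with GRCm38 (mm10) are named in the submitters' processing notes; versions, annotation and strandedness are not stated there. The deposited values are scores: whole numbers made by the authors by scaling each library to 20000000 reads and rounding up (library sums of 20006569 to 20013862). Dividing by the value of 1 read gave whole reads (within the rounding) for 99.7 to 99.9% of values, 4136978 to 7206703 per library. The values were scaled by trimmed means of M values (trims of 30% and 5%), taken as log2(value + 8), so that fold changes of low genes are understated, and fitted with limma 3.58.1 (R 4.3.3; 4 group means, intensity trend, two-sided) over the 16900 genes with at least 40 in at least 2 libraries. Calls were made at a Benjamini-Hochberg adjusted p under 0.05 over all genes tested. The fit was tested on simulated data. All calls share an estimate of the spread with 4 residual degrees of freedom; 2 libraries against 2 leave no permutation test that could reach 0.05. Levels were compared between genes per kilobase of the union of exons (GENCODE M21). Members that were called are named, with every library's value for the 15 highest and for all Timp genes, and in related lists the up to 2 called genes with the highest and lowest difference. The members, lists and markers were chosen with earlier results of these data known. Alternatives were limma voom on recovered reads, other scalings, pseudocounts and filters, no trend, only the groups compared, a replicate block and each library left out. Some items are not reported here.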

Additional observations from a re-analysis of the deposited data

How the results depend on the processing

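Of 79 called differences of members, 51 kept direction and call in every alternative, 28 lost the call in at least 1, 12 of them with all libraries kept, and 0 reversed. The number of members called between DNp63 and CD1 luminal cells was 1 in the reported fit, 0 without an intensity trend, 0 with only the groups compared and 2 with the replicate block; the cause was not tested, except that the last but one uses fewer samples. With 1 library left out, the members called numbered 18 to 28 (CD1 basal against CD1 luminal), 0 to 7 (DNp63 against CD1 luminal), 18 to 26 (DNp63 basal against CD1 luminal), 0 to 0 (DNp63 against CD1 basal), 20 to 27 (DNp63 basal against DNp63 luminal) and 0 to 1 (interaction); a group left with 1 library is assumed to vary like the others. Of 119 differences that were not called, 52 changed sign in at least 1 alternative, 4 of them with all libraries kept, and 22 gained a call in at least 1. Some of the differences that crossed 0 with 1 library left out are given here, and the others are not listed. Between CD1 gates they ranged from -0.33 to 1.27 for Mmp19 and -2.07 to 1.75 for Mmp3. Between DNp63 and CD1 luminal cells they ranged from -1.47 to 0.83 for Adamts12 and -1.83 to 0.86 for Adamts5. There the ranges were -1.52 to 1.75 for Adamts2 and -2.02 to 2.11 for Mmp2. Between DNp63 basal and CD1 luminal cells Mmp3 ranged from -0.69 to 3.13. Between basal groups the ranges were -0.19 to 1.07 for Mmp2 and -0.17 to 0.12 for Timp3. Mmp16 ranged from -0.25 to 2.10 between DNp63 gates, and Adamts2 from -1.41 to 1.86 in the interaction. The labels give the groups the same replicate numbers but no shared animal. Deviations of the libraries numbered 1 correlated by 0.34 between CD1 gates and 0.267 between DNp63 gates, the pairs with the same mouse label. Between the other groups they correlated by -0.015 to 0.041. Whether same-numbered libraries of a mouse label shared an animal or a day was not tested, and the reported fit treats them as unpaired. The replicate block gives all 4 groups the same shift, so CD1 and DNp63 pairs were not given separate shifts. With the replicate block 28, 2, 26, 0, 26 and 0 members were called in the 6 comparisons in the order above, and 0 of the calls were lost. Per kilobase of the longest transcript in place of all exons, the summed levels were higher: 3446.8, 2665.1 and 4367.9 for Mmp (CD1 luminal, DNp63 luminal and DNp63 basal), 1048.5, 1018.0, 11647.5 and 12206.2 for Adamts (CD1 luminal, DNp63 luminal, CD1 basal and DNp63 basal), and 1406.5, 4532.6 and 4650.3 for Timp (DNp63 luminal, CD1 basal and DNp63 basal), as that length is shorter. Orders and shares of single members within a class were made per kilobase of all exons only, and they can change with the length. All exons and the longest transcript were 10178 and 5642 bases for Adamts18 and 4810 and 4389 for Adamts4. They were 5960 and 3238 bases for Mmp14 and 5397 and 5135 for Mmp15. The largest shift of the median of all genes between scalings was 0.103. Depth limits members under about 3 reads (8.33 to 14.5).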
